A study of Mus musculus with 9 samples.

Results

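The genes described here are 33 mouse genes for lysosomal enzymes and membrane proteins, taken as a named list. They comprise cathepsins and other proteases, glycosidases and sulfatases, lipid-handling proteins, membrane proteins, subunits of the lysosomal proton pump and Tfeb, a transcription factor of lysosomal genes. Of the 33 genes, 32 were measured, out of 18193 named genes on the arrays; Cd63, a tetraspanin of late endosomes and lysosomes, was not analysed here because none of the probe sets used carried its symbol alone. Expression was profiled on 9 Affymetrix microarrays of mouse cells, 3 for each of 3 groups. yNSCs were cells with neural stem cell (NSC) properties that were derived from cortical neurons by lentiviral, doxycycline-inducible expression of wild-type YAP, the coactivator that Hippo signalling holds in check, and that could then be propagated as spheres without doxycycline. NSCs were native neural stem cells. yNSCs and NSCs were grown in DMEM/F12 with N2 supplement, EGF, bFGF, heparin, glutamine and antibiotics. Neurons were primary cortical cultures in Neurobasal medium with B27, glutamine, antibiotics and AraC, a compound that kills dividing cells, so medium and cell type cannot be told apart in any comparison with neurons. By the methods, neurons came from late embryos or newborn pups and were first plated with serum; the strain, the passage of the profiled cells and the origin of the NSCs are not given in the sources used here. Each group has replicates A, B and C, labelled as biological.

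Lysosomes are acidic organelles in which hydrolases break down proteins, glycans, lipids and nucleic acids that arrive by endocytosis and autophagy. A vacuolar ATPase pumps protons into the lumen, heavily glycosylated membrane proteins such as LAMP1 and LAMP2 line the membrane, and most soluble enzymes reach the organelle through mannose 6-phosphate receptors. In human cells TFEB and its relatives bind an E-box element, called CLEAR, in the promoters of many lysosomal genes and raise their transcription when nutrients are scarce; long-lived neurons and quiescent stem cells are known to rely on lysosomal clearance.

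Promoters of members are shown because the E-box core, CACGTG, is a sequence feature that the choice of genes did not use and that many members share. The windows run from 250 bases before to 50 bases after an annotated transcript start and come from RefSeq on the mouse assembly GRCm38.p6. The promoter table held 27 of the 33 members (81.8%). The core, which reads the same on both strands, occurred in the windows of 11 of these 27 genes (40.7%), against 1479 of the 14452 array genes in the table (10.2%) and 2349 of 32851 promoters in all (7.15%). At least 2 cores occurred in 4 of the 27 members (14.8%) and in 147 of the 14452 array genes (1.02%). The full palindrome GTCACGTGAC, which contains the core, occurred in 0 of the 27 members, against 83 array genes (0.574%) and 0.326% of all promoters. A match to these letters is a description of the window and not a measured binding site. The 4 core-bearing members with the largest called differences in expression, and Lamp1, which has the most cores, are printed 5′ to 3′ with each core in capitals. The coordinates are Ctsd, chr7:142387778-142388077, minus strand; Ctsf, chr19:4854915-4855214, plus strand; Naglu, chr11:101069844-101070143, plus strand; Atp6v0d1, chr8:105566015-105566314, minus strand; and Lamp1, chr8:13158911-13159210, plus strand.
Ctsd: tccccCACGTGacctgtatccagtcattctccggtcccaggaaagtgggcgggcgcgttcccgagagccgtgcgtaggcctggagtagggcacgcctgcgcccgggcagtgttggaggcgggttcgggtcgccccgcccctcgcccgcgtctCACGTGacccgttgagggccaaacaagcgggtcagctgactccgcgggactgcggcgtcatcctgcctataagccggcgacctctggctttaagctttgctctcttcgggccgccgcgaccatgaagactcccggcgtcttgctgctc
Ctsf: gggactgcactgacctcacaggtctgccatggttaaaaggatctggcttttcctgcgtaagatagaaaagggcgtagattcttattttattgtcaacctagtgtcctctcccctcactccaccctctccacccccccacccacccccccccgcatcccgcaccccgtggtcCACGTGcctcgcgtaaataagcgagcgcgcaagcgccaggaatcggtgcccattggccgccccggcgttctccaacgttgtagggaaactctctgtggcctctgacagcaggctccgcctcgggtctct
Naglu: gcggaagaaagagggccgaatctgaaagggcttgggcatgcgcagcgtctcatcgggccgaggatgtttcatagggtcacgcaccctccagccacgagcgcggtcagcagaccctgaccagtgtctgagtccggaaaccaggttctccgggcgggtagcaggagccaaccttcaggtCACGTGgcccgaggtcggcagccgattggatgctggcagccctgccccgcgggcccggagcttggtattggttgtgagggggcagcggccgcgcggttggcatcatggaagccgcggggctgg
Atp6v0d1: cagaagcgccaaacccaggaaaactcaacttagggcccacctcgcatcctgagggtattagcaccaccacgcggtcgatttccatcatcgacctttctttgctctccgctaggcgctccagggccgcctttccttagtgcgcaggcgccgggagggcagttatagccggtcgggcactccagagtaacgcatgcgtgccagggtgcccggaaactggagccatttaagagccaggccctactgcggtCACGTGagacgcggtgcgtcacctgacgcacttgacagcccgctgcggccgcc
Lamp1: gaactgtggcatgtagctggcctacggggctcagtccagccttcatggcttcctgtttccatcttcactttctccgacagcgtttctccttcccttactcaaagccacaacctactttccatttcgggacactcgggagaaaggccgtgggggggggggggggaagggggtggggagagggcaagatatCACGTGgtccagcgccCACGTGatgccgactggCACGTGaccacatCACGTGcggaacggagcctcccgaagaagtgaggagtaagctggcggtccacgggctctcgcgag
In these 5 windows the transcript start follows base 250, so each window also holds the beginning of the transcript. In Lamp1 the 4 cores begin at positions -61, -45, -28 and -15, counted from the transcript start. Ctsd carries cores at -245 and -98, Ctsf at -79, Naglu at -73, and in Atp6v0d1 the core begins at -3 and spans the start itself. The remaining members with a core were Ctsa, Ctsl, Gaa, Glb1, Sgsh and Mcoln1.

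**Figure D1:**
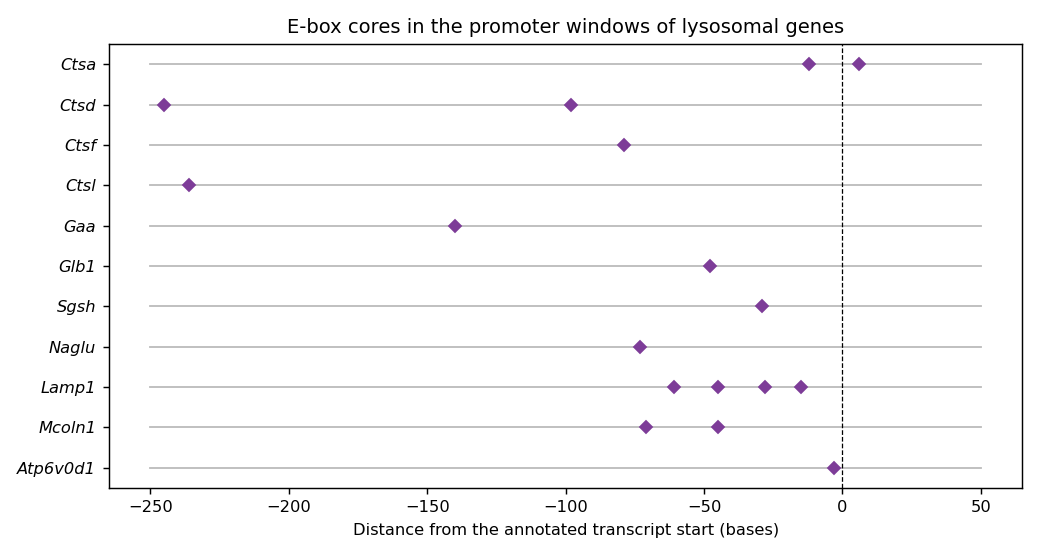
Positions of the E-box core in the promoter windows of the 11 members that hold it. The x axis is the distance of the first base of each core from the annotated transcript start in bases, the grey line is the window, and each diamond is 1 core; Lamp1 has 4 cores within the last 61 bases before its start.

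Expression values are log2 summaries per probe set as deposited, computed by the authors with RMA (robust multi-array average, which corrects background, normalizes arrays together and combines the probes of a set). Values are comparable between arrays for 1 gene but not between genes, since probe sets differ in brightness. Array medians over all probe sets lay between 4.90 and 5.02. A gene was treated as near background in a group where its mean lay below the mean lower quartile of that group's arrays, which was 3.49 in yNSCs, 3.43 in NSCs and 3.71 in neurons; none of the 32 members was near background in any group. Markers bore out the labels in broad terms. All 8 neuron markers were lower in yNSCs and in NSCs than in neurons, and 4 of 5 neural stem cell markers were higher in each than in neurons. The neuron cultures also carried a signal of microglia and macrophages, cells rich in lysosomes. The 14 microglial markers summed, on the linear scale, to 335 to 352 in yNSCs, 196 to 208 in NSCs and 5413 to 7364 in neurons. Of these markers 12 were lower and 0 higher in yNSCs against neurons, and 14 were lower in NSCs than in neurons. In yNSCs against NSCs 9 were higher and 0 lower. However, 5 of the 14 were near background in NSCs, among them C1qb and P2ry12, which were called higher in yNSCs. Aif1, Itgam and Ptprc were near background in yNSCs as well. Astrocyte markers summed to 5522 to 6383 in yNSCs, 2307 to 3516 in NSCs and 6385 to 6756 in neurons. Of these 6 markers 2 were higher and 1 lower in yNSCs against neurons. Their mean log2 value was 8.70 to 8.91 in yNSCs and 8.58 to 8.72 in neurons, so the order of these sums did not hold for the means. Oligodendrocyte lineage markers summed to 8711 to 8891 in yNSCs, 10090 to 11660 in NSCs and 4440 to 4548 in neurons, and 3 of 5 were lower and 0 higher in yNSCs against NSCs. Such sums rest mostly on the brightest probe sets. In yNSCs against neurons 2 of these 5 markers were higher and 3 lower. Their mean log2 value was 7.49 to 7.61 in yNSCs and 8.67 to 8.68 in neurons, the opposite order to the sums. Control probe sets at the 3' and 5' ends of Actb differed by 0.19 to 0.31 (log2) in yNSCs, 0.56 to 0.70 in NSCs and 0.03 to 0.21 in neurons, so the 3' bias was strongest in the NSC RNA. The part of these cell types and of RNA quality in the differences below was not tested.

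yNSCs and NSCs were each set against neurons, and yNSCs against NSCs, to ask how lysosomal gene expression differed between the converted cells, native stem cells and the neuronal cultures. A gene was called where limma's moderated test gave a Benjamini-Hochberg adjusted p under 0.05 over all 18193 genes. In yNSCs against neurons 14 of the 32 members were higher (43.8%) and 8 lower (25%), while 34.6% of all genes were called higher and 27.9% lower. In NSCs against neurons 11 members were higher (34.4%) and 13 lower (40.6%), against 33.3% and 34.1% of all genes. In yNSCs against NSCs 16 members were higher (50%) and 5 lower (15.6%), against 21.3% and 18% of all genes. The share of members called higher in yNSCs against NSCs lay above the share of all genes. The background itself depends on which genes enter it. Once the 40% of genes with the lowest means were left out, 52.2% of the other 10916 genes were called higher and 26.6% lower in yNSCs against neurons. The corresponding shares were 51.6% higher and 28.3% lower in NSCs against neurons, and 28.7% higher and 28.1% lower in yNSCs against NSCs. Against that background a smaller share of members was higher in both comparisons with neurons, and a larger share was lower in NSCs against neurons.

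The median difference of the 32 members was 0.11 (log2) in yNSCs against neurons, with -0.01 over all genes. This sign depended on scaling, since it was -0.08 after subtracting each array's median and -0.12 after quantile normalization, where the calls split as 10 higher and 9 lower and as 10 higher and 12 lower. Subtracting array medians also moved the split over all genes, which was 6294 higher and 5081 lower as deposited and 5392 higher and 7567 lower after that step. After quantile normalization the split over all genes was 5853 higher and 5061 lower. In NSCs against neurons the median was -0.15 with -0.07 over all genes, and in yNSCs against NSCs it was 0.41 with 0.07 over all genes. At least 2-fold differences among the calls numbered 6 higher and 2 lower in yNSCs against neurons (18.3% and 10.9% of all genes), 7 and 8 in NSCs against neurons (18.6% and 12.6%), and 6 and 1 in yNSCs against NSCs (6.05% and 5.96%). Members whose arrays lay all above or all below those of the other group numbered 14 and 8 in yNSCs against neurons (36.8% and 30.2% of all genes), 12 and 14 in NSCs against neurons (33.5% and 35.6%), and 19 and 8 in yNSCs against NSCs (29.6% and 21.9%). With 3 arrays against 3, an exact permutation test of a single gene cannot give a two-sided p below 0.1, so calls rest on limma, which shares the spread across genes.

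**Figure D2:**
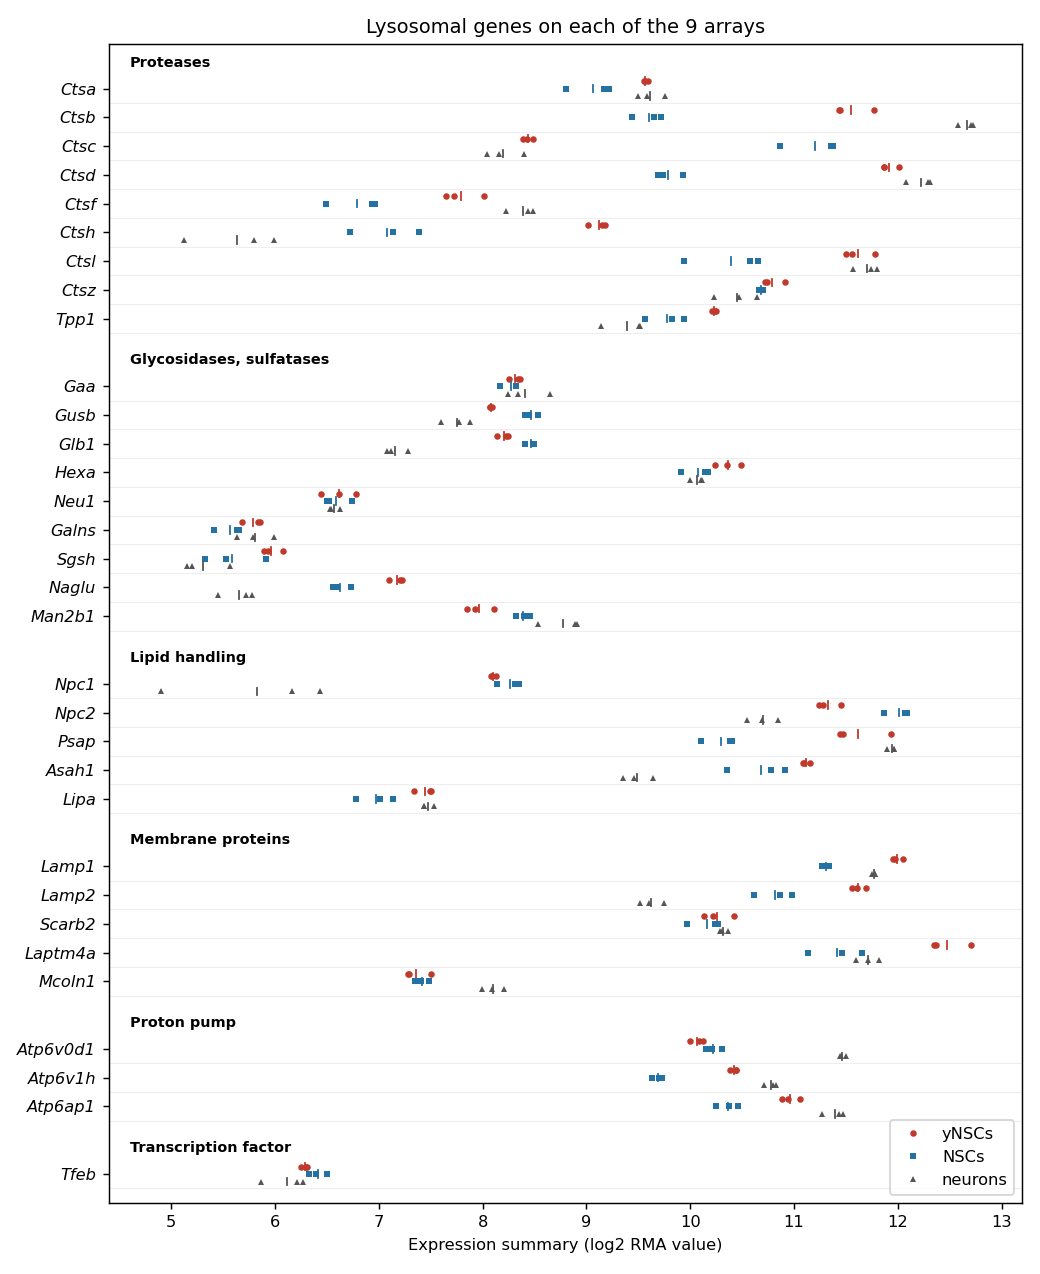
Expression of the 32 measured lysosomal genes on every array. The x axis is the log2 RMA value, each row is a gene grouped by role, each mark is 1 array of yNSCs, NSCs or neurons, and short ticks are group means; Ctsb, Ctsd, Ctsh, Ctsc, Npc1 and Lamp2 show the widest separations, while Gaa and Neu1 overlap in all groups.

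Among the 9 proteases, the aspartic and cysteine cathepsins that are most abundant in lysosomes were lowest in NSCs. Ctsd, the major aspartic protease of lysosomes, had values of 11.87, 11.87 and 12.01 in yNSCs, 9.74, 9.93 and 9.69 in NSCs, and 12.29, 12.31 and 12.08 in neurons (replicates A, B and C). No NSC array reached the range of the other groups, and Ctsd was 4.38-fold higher in yNSCs than in NSCs (log2 difference 2.13 ± 0.110, moderated SE, n = 3 each, limma adjusted p = 2.57e-08). It was 5.43-fold lower in NSCs than in neurons, with a difference of -2.44 ± 0.110 (limma adjusted p = 1.52e-09). Between yNSCs and neurons the difference was small, -0.31 ± 0.110 (limma adjusted p = 0.0269), and was not called without replicate A or B of the yNSCs (-0.29) or replicate A (-0.28) or B (-0.27) of the neurons. Ctsb, a cysteine protease with endopeptidase and carboxypeptidase activity, had 11.44, 11.43 and 11.77 in yNSCs, 9.44, 9.72 and 9.65 in NSCs, and 12.70, 12.72 and 12.58 in neurons. The 3 groups were fully separated, with yNSCs between NSCs and neurons. Ctsb was 3.85-fold higher in yNSCs than in NSCs (1.94 ± 0.122), 2.17-fold lower in yNSCs than in neurons (-1.12 ± 0.122) and 8.36-fold lower in NSCs than in neurons (-3.06 ± 0.122), the most negative difference of any member against neurons.

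Ctsl, a cysteine endopeptidase, showed the same order of NSCs below the other groups, with 11.50, 11.56 and 11.78 in yNSCs, 9.94, 10.58 and 10.65 in NSCs and 11.80, 11.74 and 11.57 in neurons. yNSC and neuron arrays overlapped for Ctsl (difference -0.09, limma adjusted p = 0.67), while it was 2.33-fold higher in yNSCs than in NSCs and 2.49-fold lower in NSCs than in neurons. Ctsf, a cysteine protease whose mutation causes an adult form of neuronal ceroid lipofuscinosis in humans, had 7.65, 7.72 and 8.01 in yNSCs, 6.49, 6.96 and 6.93 in NSCs, and 8.44, 8.23 and 8.49 in neurons. Again the groups did not overlap, and its differences were 1.0 ± 0.148 in yNSCs against NSCs, -0.59 ± 0.148 in yNSCs against neurons and -1.59 ± 0.148 in NSCs against neurons. Ctsa, a carboxypeptidase that also protects beta-galactosidase and neuraminidase, was 0.50 higher in yNSCs than in NSCs and 0.55 lower in NSCs than in neurons on the log2 scale. Its yNSC and neuron arrays overlapped, at 9.55 to 9.59 in yNSCs and 9.50 to 9.76 in neurons, and it was called lower in yNSCs than in neurons only after quantile normalization (-0.32).

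Ctsc and Ctsh departed from that order in different ways. Ctsc, also known as dipeptidyl peptidase I, which activates serine proteases of immune cells, had 8.43, 8.49 and 8.39 in yNSCs, 10.86, 11.36 and 11.38 in NSCs, and 8.16, 8.40 and 8.04 in neurons. Every NSC array lay above every other array. Ctsc was 6.79-fold lower in yNSCs than in NSCs (-2.76 ± 0.147, limma adjusted p = 3.54e-08) and 8.0-fold higher in NSCs than in neurons (3.0 ± 0.147). It was the only protease called lower in yNSCs than in NSCs. Ctsh, an aminopeptidase, had 9.18, 9.02 and 9.15 in yNSCs, 6.72, 7.14 and 7.39 in NSCs, and 5.80, 5.99 and 5.12 in neurons. yNSCs were highest for Ctsh, which was 11.2-fold higher in yNSCs than in neurons (3.48 ± 0.214, limma adjusted p = 2.62e-08), 4.09-fold higher in yNSCs than in NSCs (2.03 ± 0.214) and 2.73-fold higher in NSCs than in neurons (1.45 ± 0.214). Tpp1, a tripeptidyl peptidase mutated in late-infantile ceroid lipofuscinosis, followed the same order at smaller sizes, 0.84 in yNSCs against neurons, 0.46 in yNSCs against NSCs and 0.38 in NSCs against neurons. Ctsz, a carboxypeptidase, differed by 0.34 in yNSCs against neurons and was called in that comparison alone. The smaller of these calls depended on single arrays and on scaling. Ctsz was not called in yNSCs against neurons without replicate C of the yNSCs (0.28) or of the neurons (0.24), nor after subtracting array medians or quantile normalization (0.16 in each), and without replicate B of the neurons it was called in NSCs against neurons (0.33). Tpp1 lost its call in NSCs against neurons without replicate B (0.36) or C (0.30) of the NSCs or replicate C of the neurons (0.26), after subtracting array medians (0.25) and after quantile normalization (0.10), and in yNSCs against NSCs without replicate A of the NSCs (0.35). In all, 7 of 9 proteases were higher and 1 lower in yNSCs against NSCs (77.8% and 11.1%, against 21.3% and 18% of all genes). In NSCs against neurons 3 were higher and 5 lower (33.3% and 55.6%, against 33.3% and 34.1%). In yNSCs against neurons 3 were higher and 3 lower (33.3% each, against 34.6% and 27.9%).

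The 9 glycosidases and sulfatases, which trim glycans from glycoproteins, glycolipids and glycosaminoglycans, differed less. In yNSCs against neurons 5 were higher and 1 lower (55.6% and 11.1%, against 34.6% and 27.9% of all genes). In NSCs against neurons 3 were higher and 1 lower (33.3% and 11.1%, against 33.3% and 34.1%). In yNSCs against NSCs 1 was higher and 3 lower (11.1% and 33.3%, against 21.3% and 18%). Naglu, an enzyme of heparan sulfate breakdown, had 7.10, 7.20 and 7.22 in yNSCs, 6.73, 6.60 and 6.56 in NSCs, and 5.78, 5.72 and 5.45 in neurons. The groups were separated, and Naglu was 2.87-fold higher in yNSCs than in neurons (1.52 ± 0.112), 1.97-fold higher in NSCs than in neurons (0.98 ± 0.112) and 1.46-fold higher in yNSCs than in NSCs (0.54 ± 0.112). Sgsh, a sulfatase of the same degradation route, was called in yNSCs against neurons alone (0.66, limma adjusted p = 0.00284), but without replicate A of the NSCs it was also called in yNSCs against NSCs (0.54), and without replicate C of the NSCs (0.41) or replicate B of the neurons (0.42) in NSCs against neurons. A dimmer Sgsh probe set gave 0.02 in yNSCs against neurons, not called, so the result for Sgsh depends on the probe set. Glb1, the beta-galactosidase whose activity is widely used as a stain for senescent cells, had 8.24, 8.23 and 8.14 in yNSCs, 8.41, 8.50 and 8.49 in NSCs, and 7.12, 7.08 and 7.28 in neurons. It was 2.06-fold higher in yNSCs than in neurons and 2.47-fold higher in NSCs than in neurons, and its difference of -0.26 in yNSCs against NSCs lay just under the threshold of the test and was not called without any 1 yNSC array (-0.28 to -0.23), replicate B or C of the NSCs (-0.25) or replicate A of the neurons (-0.26), nor after quantile normalization (-0.21).

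Man2b1, a lysosomal alpha-mannosidase, went the other way against neurons, with 7.93, 7.85 and 8.11 in yNSCs, 8.46, 8.40 and 8.32 in NSCs, and 8.91, 8.89 and 8.53 in neurons. It was 1.76-fold lower in yNSCs than in neurons (-0.81 ± 0.124), and its differences were -0.38 in NSCs against neurons and -0.43 in yNSCs against NSCs. These smaller calls were lost without replicate C of the NSCs (-0.35), replicate A (-0.32) or B (-0.33) of the neurons in NSCs against neurons, and without replicate A (-0.41) or B (-0.37) of the yNSCs in yNSCs against NSCs. Gusb, the beta-glucuronidase, had 8.09, 8.07 and 8.07 in yNSCs, 8.53, 8.45 and 8.41 in NSCs, and 7.88, 7.77 and 7.60 in neurons, and was called in each comparison (0.33 in yNSCs against neurons, 0.71 in NSCs against neurons, -0.39 in yNSCs against NSCs). A dimmer probe set of Gusb was called the other way in yNSCs against NSCs, with 0.72, so its direction there depends on the probe set, and without replicate C of the neurons it was not called in yNSCs against neurons (0.25). Rescaling also removed that call, with 0.14 after subtracting array medians and 0.01 after quantile normalization. Hexa, the alpha subunit of beta-hexosaminidase, had 10.24, 10.35 and 10.49 in yNSCs, 9.91, 10.14 and 10.17 in NSCs, and 10.10, 10.11 and 10.00 in neurons, and passed the test in yNSCs against neurons (0.29, limma adjusted p = 0.037) but not in yNSCs against NSCs (0.29, limma adjusted p = 0.0582). The call was lost without replicate B (0.30) or C (0.23) of the yNSCs or any 1 neuron array (0.26 to 0.31), and the difference was 0.10 after subtracting array medians and 0.06 after quantile normalization, neither of them called. Gaa, the acid alpha-glucosidase that digests glycogen, spanned 8.25 to 8.36 in yNSCs, 8.17 to 8.32 in NSCs and 8.24 to 8.65 in neurons. Gaa, the sialidase Neu1 and the sulfatase Galns passed the test in none of the 3 comparisons, although without replicate A of the neurons Galns was called in NSCs against neurons (-0.33), as it was after subtracting array medians (-0.38), and after quantile normalization Gaa was called lower in yNSCs (-0.40) and in NSCs (-0.49) than in neurons. A dimmer Neu1 probe set was called lower in yNSCs than in neurons (-0.51) and than in NSCs (-0.35).

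Among the 5 lipid-handling genes, Npc1, Npc2 and Asah1 were higher in both stem cell groups than in neurons. Psap and, by its brightest probe set only, Lipa were lower in NSCs than in neurons. Npc1 and Npc2, which together move cholesterol out of the lysosome, were called higher in both. Npc1, the membrane partner, had 8.13, 8.08 and 8.09 in yNSCs, 8.14, 8.35 and 8.31 in NSCs, and 6.43, 6.16 and 4.90 in neurons. The neuron arrays were widely spread, with replicate C lowest, and this SD of 0.82 was the largest of any member in any group. Npc1 was 4.82-fold higher in yNSCs than in neurons (2.27 ± 0.293) and 5.41-fold higher in NSCs than in neurons (2.44 ± 0.293). Between yNSCs and NSCs its difference was -0.17 ± 0.293 (limma adjusted p = 0.703), although the arrays did not overlap. Npc2, the soluble partner, had 11.28, 11.24 and 11.45 in yNSCs, 11.87, 12.07 and 12.09 in NSCs, and 10.85, 10.69 and 10.55 in neurons. NSCs were highest, so that Npc2 was 1.54-fold higher in yNSCs than in neurons, 2.49-fold higher in NSCs than in neurons and 1.61-fold lower in yNSCs than in NSCs (-0.69 ± 0.115, limma adjusted p = 0.000461).

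Asah1, the acid ceramidase, had 11.09, 11.10 and 11.15 in yNSCs, 10.35, 10.78 and 10.91 in NSCs, and 9.64, 9.46 and 9.35 in neurons. It was 3.10-fold higher in yNSCs than in neurons (1.63 ± 0.141) and 2.29-fold higher in NSCs than in neurons, with a difference of 0.43 in yNSCs against NSCs (limma adjusted p = 0.0288) that was not called without replicate A of the NSCs (0.27) or any 1 yNSC array (0.42 to 0.45). Psap, the precursor of the saposins that help hydrolases reach sphingolipids, instead resembled the cathepsins that were lowest in NSCs, with 11.47, 11.44 and 11.93 in yNSCs, 10.10, 10.40 and 10.38 in NSCs, and 11.96, 11.96 and 11.90 in neurons. It was 2.50-fold higher in yNSCs than in NSCs (1.32 ± 0.140) and 3.13-fold lower in NSCs than in neurons (-1.65 ± 0.140), and did not pass the test between yNSCs and neurons (-0.33 ± 0.140, limma adjusted p = 0.0603), where replicate C of the yNSCs reached the neuron values. Without that array the difference was -0.48 (limma adjusted p = 0.00556), and it was also called without replicate A of the NSCs (limma adjusted p = 0.0459). It was called lower as well after subtracting array medians (-0.51), after quantile normalization (-0.38), with a variance trend and robust prior (limma adjusted p = 0.0299) and once the 40% dimmest genes were dropped (limma adjusted p = 0.0497). Lipa, the acid lipase that frees cholesterol from its esters, differed by 0.47 in yNSCs against NSCs and by -0.49 in NSCs against neurons. Its yNSC and neuron arrays overlapped, although after quantile normalization it was called lower in yNSCs than in neurons (-0.35). Dimmer Lipa probe sets gave -0.20 and -0.12 in NSCs against neurons, neither called. They gave 0.22, not called, and 0.65, called, in yNSCs against neurons, and 0.42 and 0.77, both called, in yNSCs against NSCs.

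**Figure D3:**
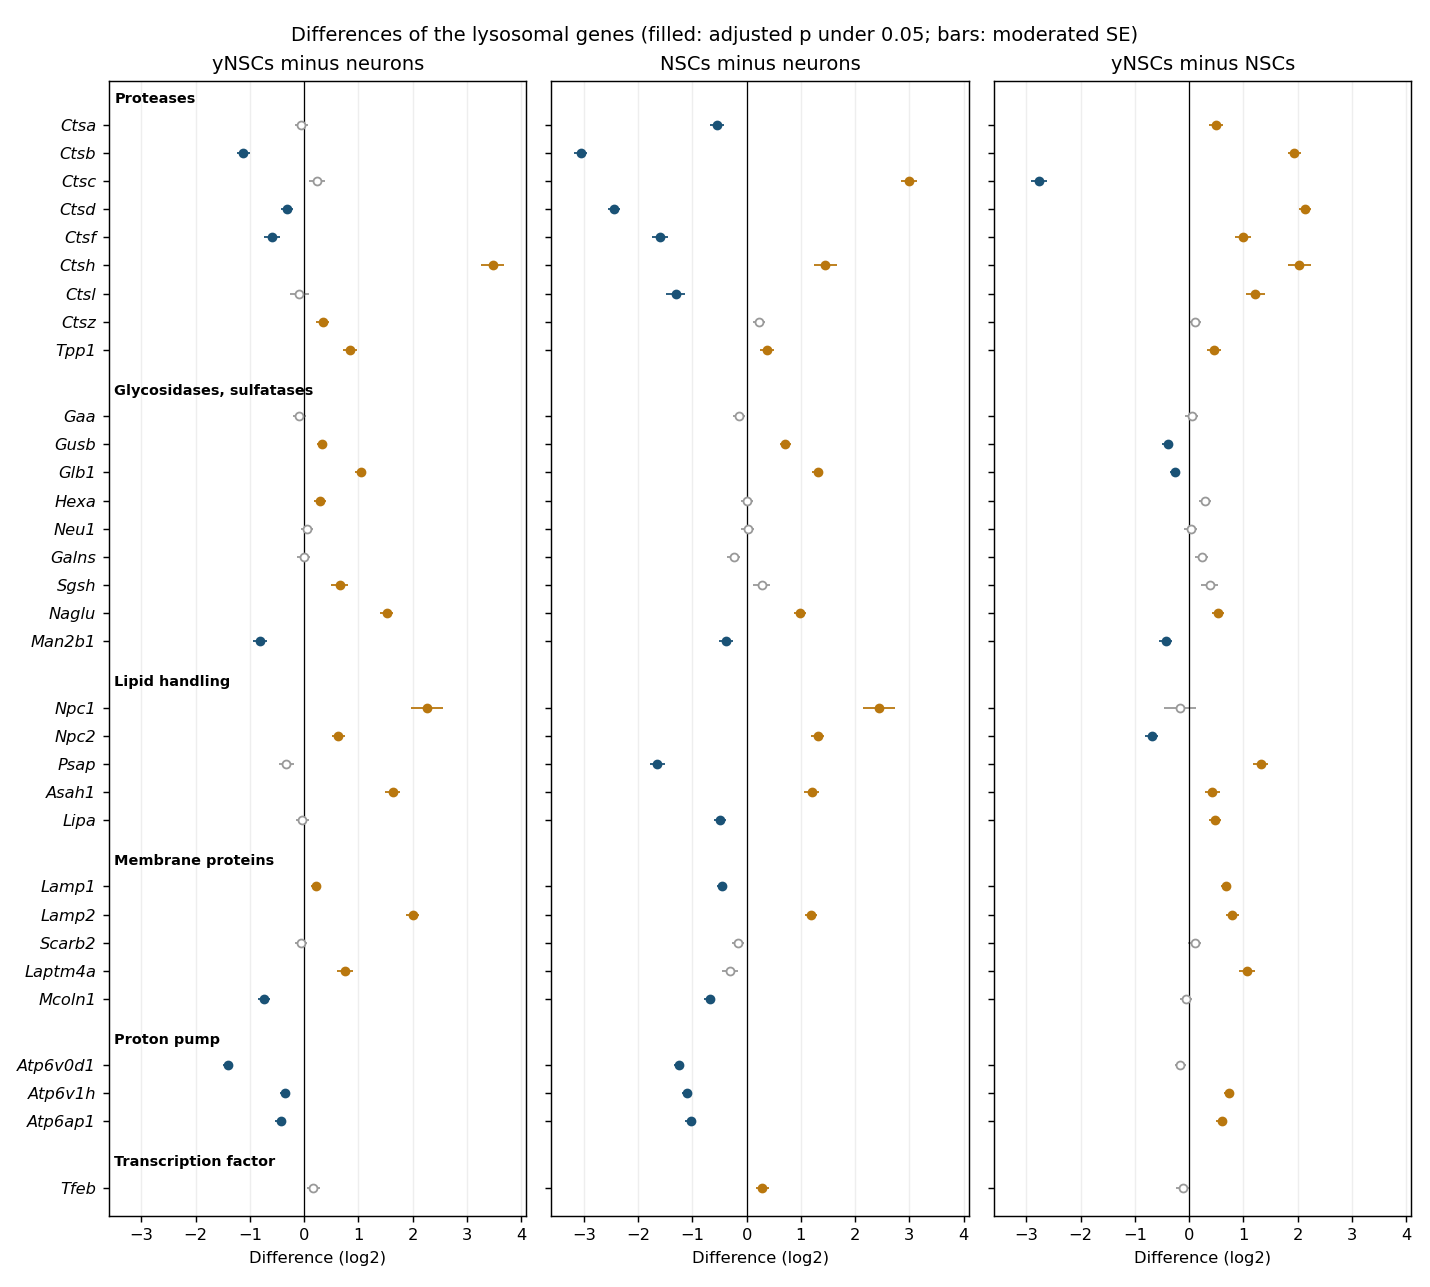
Differences of the 32 lysosomal genes in the 3 comparisons. The x axis is the log2 difference, yNSCs minus neurons, NSCs minus neurons and yNSCs minus NSCs from left to right; bars are moderated standard errors and filled points passed the test, among them Ctsh at 3.48 in yNSCs against neurons, Ctsb at -3.06 in NSCs against neurons and Ctsc at -2.76 in yNSCs against NSCs.

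The 5 membrane proteins held the most abundant proteins of the lysosomal membrane, Lamp1 and Lamp2. Lamp2, which also has an isoform that acts as the receptor of chaperone-mediated autophagy, had 11.61, 11.69 and 11.56 in yNSCs, 10.61, 10.86 and 10.98 in NSCs, and 9.60, 9.75 and 9.52 in neurons. The groups were separated in the order yNSCs, NSCs, neurons. Lamp2 was 3.99-fold higher in yNSCs than in neurons (2.0 ± 0.117, limma adjusted p = 1.76e-08), 2.29-fold higher in NSCs than in neurons and 1.75-fold higher in yNSCs than in NSCs (0.80 ± 0.117). Its 4 probe sets did not all give this order. In yNSCs they were higher than in neurons by 2.0, 2.56, 1.47 and 2.0 and higher than in NSCs by 0.80, 0.63, 1.57 and 1.96, and all of these were called. In NSCs against neurons they differed by 1.19 and 1.92, which were called, and by -0.09 and 0.04, which were not. Lamp1 varied less, with 11.95, 11.97 and 12.05 in yNSCs, 11.34, 11.31 and 11.27 in NSCs, and 11.78, 11.78 and 11.75 in neurons. NSCs were lowest for Lamp1, which was 1.61-fold higher in yNSCs than in NSCs (0.68 ± 0.0898, limma adjusted p = 6.82e-05) and 1.38-fold lower in NSCs than in neurons (-0.46 ± 0.0898); its 0.22 in yNSCs against neurons barely passed the test (limma adjusted p = 0.0499), and of the 9 arrays only replicate A of the NSCs could be left out without losing that call (0.19 to 0.24). After subtracting array medians the difference was 0.03 (limma adjusted p = 0.774), and after quantile normalization it was 0.18 (limma adjusted p = 0.109).

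Laptm4a, a small transmembrane protein of endosomes and lysosomes, had 12.35, 12.37 and 12.70 in yNSCs, 11.13, 11.65 and 11.46 in NSCs, and 11.71, 11.82 and 11.60 in neurons. It was 2.08-fold higher in yNSCs than in NSCs and 1.70-fold higher in yNSCs than in neurons, and passed the test between NSCs and neurons only without replicate B of the NSCs (-0.41) or after array medians were subtracted (-0.43) or with a variance trend and robust prior (-0.30). Mcoln1, the lysosomal calcium channel TRPML1, was lower in both stem cell groups by its brightest probe set, with 7.29, 7.50 and 7.28 in yNSCs, 7.48, 7.41 and 7.35 in NSCs, and 8.21, 8.09 and 7.99 in neurons. Its differences were -0.74 ± 0.106 in yNSCs against neurons and -0.68 ± 0.106 in NSCs against neurons, and its yNSC and NSC arrays overlapped. A second Mcoln1 probe set, with a mean of 6.99 against 7.62, gave 0.04 and 0.00 in these comparisons, neither called. The dimmest Mcoln1 probe set gave -0.51 and -0.53, both called, so the result for Mcoln1 depends on the probe set. Scarb2, known as LIMP-2, an abundant protein of the lysosomal membrane, had 10.22, 10.13 and 10.42 in yNSCs, 9.97, 10.27 and 10.24 in NSCs, and 10.36, 10.29 and 10.31 in neurons, and passed the test in no comparison as deposited. It was called lower in NSCs than in neurons after array medians were subtracted (-0.30) or quantile normalization (-0.37). A second Scarb2 probe set gave 1.86 in yNSCs against neurons and 1.94 in NSCs against neurons, both called, so that the result for this gene depends on the probe set.

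The 3 subunits of the proton pump were all lower in both stem cell groups than in neurons. Atp6v0d1, a subunit of the membrane sector, had 10.08, 10.00 and 10.12 in yNSCs, 10.31, 10.21 and 10.15 in NSCs, and 11.44, 11.50 and 11.45 in neurons. It was 2.63-fold lower in yNSCs than in neurons (-1.40 ± 0.0941, limma adjusted p = 6.12e-08) and 2.36-fold lower in NSCs than in neurons. Between yNSCs and NSCs it differed by -0.16 (limma adjusted p = 0.224). Atp6v1h, a regulatory subunit of the cytosolic sector, had 10.38, 10.44 and 10.44 in yNSCs, 9.63, 9.70 and 9.73 in NSCs, and 10.71, 10.80 and 10.83 in neurons. It was 2.13-fold lower in NSCs than in neurons, with smaller differences of -0.36 in yNSCs against neurons and 0.73 in yNSCs against NSCs, although a much dimmer probe set of this gene was called the other way in NSCs against neurons (0.74) and in yNSCs against NSCs (-1.20). Averaged over its probe sets, Atp6v1h was called in none of the comparisons (-0.24 in yNSCs against neurons, -0.09 in NSCs against neurons and -0.15 in yNSCs against NSCs). Atp6ap1, an accessory subunit, had 10.94, 10.88 and 11.06 in yNSCs, 10.25, 10.46 and 10.37 in NSCs, and 11.43, 11.47 and 11.27 in neurons. The order was the same as for Atp6v1h, with -0.43 in yNSCs against neurons, -1.03 in NSCs against neurons and 0.60 in yNSCs against NSCs.

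Tfeb itself had 6.31, 6.30 and 6.25 in yNSCs, 6.40, 6.50 and 6.33 in NSCs, and 6.27, 6.21 and 5.87 in neurons. Its differences were 0.17 ± 0.118 in yNSCs against neurons (limma adjusted p = 0.23), 0.29 ± 0.118 in NSCs against neurons (limma adjusted p = 0.0437) and -0.12 ± 0.118 in yNSCs against NSCs (limma adjusted p = 0.457). The call in NSCs against neurons was lost in most alternatives. Without replicate C of the neurons the difference was 0.17 (limma adjusted p = 0.168), without any 1 NSC array it was 0.25 to 0.33, without any 1 yNSC array 0.29, and after subtracting array medians 0.16 (limma adjusted p = 0.241), and none of these passed the test. The arrays measure Tfeb mRNA and not the nuclear location of the protein, through which nutrients act on it. Members with the E-box core in their promoters numbered 11, of which 6 were higher and 1 lower in yNSCs against NSCs with a median difference of 0.50, and members without it numbered 15, of which 6 were higher and 4 lower with a median of 0.11. In NSCs against neurons 2 were higher and 7 lower with the core (median -0.55), and 6 higher and 4 lower without it (median 0.02). In yNSCs against neurons 4 were higher and 4 lower with the core (median -0.09), and 7 higher and 2 lower without it (median 0.24). As a baseline, 21.3% of the 18193 genes had a higher call and 18% a lower call in yNSCs against NSCs. These shares were 33.3% and 34.1% in NSCs against neurons, and 34.6% and 27.9% in yNSCs against neurons. Shares among array genes with or without the core are not given here. The difference between members with and without the core was not tested, nor was any part of Tfeb in it.

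Further genes of the pathway, 131 measured in 6 lists, were counted with the same test. In yNSCs against NSCs 55 were higher and 19 lower (median 0.25), in NSCs against neurons 31 were higher and 58 lower (median -0.15), and in yNSCs against neurons 40 were higher and 47 lower (median -0.05). The shares were 42% higher and 14.5% lower in yNSCs against NSCs (21.3% and 18% of all genes), 23.7% and 44.3% in NSCs against neurons (33.3% and 34.1%), and 30.5% and 35.9% in yNSCs against neurons (34.6% and 27.9%). Subtracting array medians and quantile normalization moved the counts in yNSCs against neurons to 33 higher and 61 lower and to 30 higher and 63 lower, and those in NSCs against neurons to 28 and 66 and to 27 and 75. Among 28 other hydrolases and activators, 17 were higher (60.7%) and 5 lower (17.9%) in yNSCs against NSCs (median 0.62). Acp5, a tartrate-resistant acid phosphatase of osteoclasts and macrophages, had 5.95, 6.38 and 6.21 in yNSCs, 2.84, 3.12 and 2.81 in NSCs, and 2.48, 2.52 and 2.94 in neurons. Acp5 was near background in NSCs and in neurons, so its differences of 3.26 in yNSCs against NSCs and 3.53 in yNSCs against neurons depend on the floor of the arrays. Ctss, a cysteine cathepsin abundant in microglia, had 6.63, 6.61 and 6.74 in yNSCs, 3.99, 4.24 and 4.22 in NSCs, and 10.34, 10.06 and 9.45 in neurons. It was 5.70-fold higher in yNSCs than in NSCs, 9.78-fold lower in yNSCs than in neurons and 55.7-fold lower in NSCs than in neurons. In bulk cultures, fewer cells of a type and less RNA per cell cannot be told apart, and the microglial markers were lower in both stem cell groups as well.

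Against neurons the hydrolases split, with 15 higher and 8 lower in yNSCs (53.6% and 28.6%, against 34.6% and 27.9% of all genes). In NSCs 11 were higher and 13 lower (39.3% and 46.4%, against 33.3% and 34.1%). Once the 40% of genes of lowest mean were left out, 52.2% of the other genes were higher and 26.6% lower in yNSCs. In NSCs these shares were 51.6% and 28.3%. The share of hydrolases higher in yNSCs was thus close to that background. Aga, which cleaves the sugar linkage of asparagine, had 9.27, 9.30 and 9.39 in yNSCs, 8.09, 8.34 and 8.54 in NSCs, and 5.82 to 6.03 in neurons. Its arrays did not overlap, and it was 10.3-fold higher in yNSCs than in neurons and 5.18-fold higher in NSCs than in neurons. Prcp, a prolyl carboxypeptidase, was 6.81-fold higher in yNSCs than in neurons and 6.08-fold higher in NSCs than in neurons. Ids, a sulfatase of heparan and dermatan sulfate, was 5.99-fold lower in yNSCs than in neurons and 4.43-fold lower in NSCs than in neurons. Naaa, an acid amidase, had 7.12, 7.16 and 7.41 in yNSCs, 4.17, 4.74 and 5.48 in NSCs and 7.46, 7.52 and 7.56 in neurons, so NSCs were low here as for Ctsb and Ctsd. Dnase2a, the lysosomal DNase, was 7.55-fold higher in NSCs than in neurons and 1.98-fold lower in yNSCs than in NSCs.

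Among 25 other membrane proteins and transporters, 7 were higher and 2 lower in yNSCs against NSCs (28% and 8%, against 21.3% and 18% of all genes). In yNSCs against neurons 8 were higher and 7 lower (32% and 28%, against 34.6% and 27.9%). In NSCs against neurons 5 were higher and 7 lower (20% and 28%, against 33.3% and 34.1%). In NSCs against neurons the counts were 5 higher and 10 lower after subtracting array medians (30.0% and 43.8% of all genes). They were 7 higher and 13 lower after quantile normalization (33.3% and 29.3% of all genes). Cd68, a LAMP-family glycoprotein used as a marker of macrophages, had 8.24, 8.40 and 8.62 in yNSCs, 3.96, 4.52 and 4.18 in NSCs, and 9.26, 9.35 and 8.84 in neurons. It was 18.4-fold higher in yNSCs than in NSCs (4.20 ± 0.172) and 30.5-fold lower in NSCs than in neurons (-4.93 ± 0.172), but only 1.66-fold lower in yNSCs than in neurons. C1qa, a complement gene and microglial marker, had 4.82, 5.13 and 4.88 in yNSCs, 3.47, 3.99 and 3.73 in NSCs, and 10.56, 10.59 and 10.12 in neurons. C1qa had the same order of groups as Cd68 but not the same sizes. It was 44.6-fold lower in yNSCs than in neurons, where Cd68 was 1.66-fold lower. The microglial markers varied widely in this comparison. Their calls ran from C1qb at 58.2-fold lower to Ptprc at 3.28-fold and P2ry12 at 1.32-fold lower, and Itgam and Tmem119 were not called. C1qa was called higher in yNSCs than in NSCs (1.21, limma adjusted p = 7.94e-05), as were 9 of the 14 microglial markers in all, with 0 lower. Of the 14 markers, 5 were near background in NSCs. Against neurons 12 of the 14 were lower and 0 higher in yNSCs. The part of microglia or macrophages in the Cd68 values was not tested. Cd164, a sialomucin of endosomes and lysosomes, was 4.72-fold higher in yNSCs than in neurons and 4.55-fold higher in NSCs than in neurons. Laptm4b, a paralogue of Laptm4a, was 2.43-fold higher in yNSCs than in neurons and 3.56-fold higher in NSCs than in neurons.

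**Figure D4:**
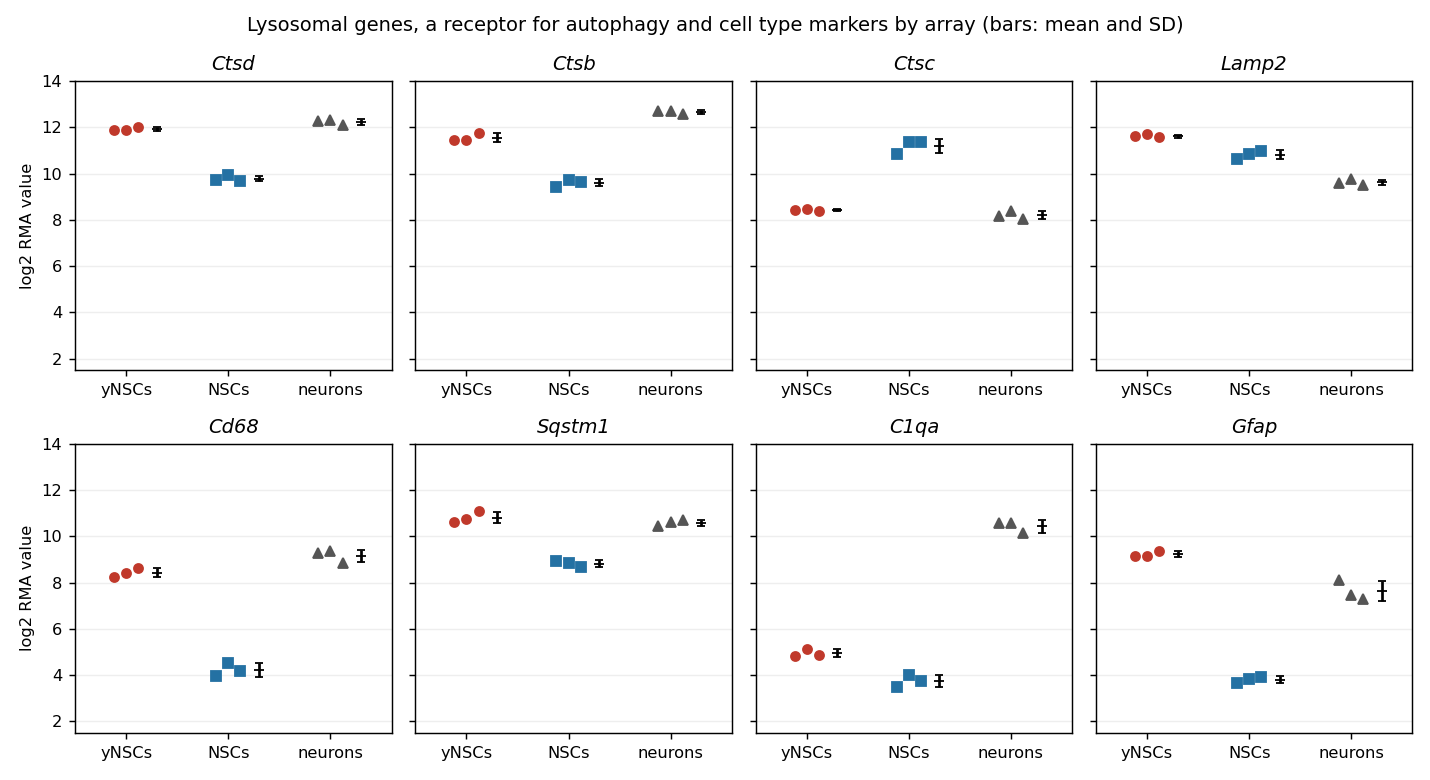
Array values of Ctsd, Ctsb, Ctsc, Lamp2, Cd68, Sqstm1, C1qa and Gfap in yNSCs, NSCs and neurons. The y axis is the log2 RMA value, each point is 1 array and the bar beside the points is the mean with the SD (n = 3); NSCs are low for Ctsd, Ctsb, Cd68 and Sqstm1 and high for Ctsc, and C1qa is highest in neurons.

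The other proton pump subunits leaned the same way as the members. Of 17 other vacuolar ATPase subunits, 10 were lower and 5 higher in yNSCs against neurons (58.8% and 29.4%, against 27.9% and 34.6% of all genes), with a median of -0.55. In NSCs against neurons 13 were lower and 2 higher (76.5% and 11.8%, against 34.1% and 33.3%), with a median of -1.03. In yNSCs against NSCs 9 were higher (52.9%, against 21.3% of all genes) and 0 lower as deposited, with a median of 0.34. After subtracting array medians and after quantile normalization 1 was called lower, against 19.4% and 18.9% of all genes. Atp6v1g2, a subunit known from neurons and synaptic vesicles, had 5.32, 5.18 and 5.35 in yNSCs, 4.79, 5.10 and 5.11 in NSCs, and 9.50, 9.59 and 9.58 in neurons, and was 19.3-fold lower in yNSCs than in neurons and 23.5-fold lower in NSCs than in neurons. Atp6v1b2, another subunit known from brain, was 2.46-fold lower in yNSCs than in neurons and 4.08-fold lower in NSCs than in neurons. Atp6v0e was 3.26-fold higher in yNSCs than in neurons and 1.99-fold higher in NSCs than in neurons. Atp6v0d2, the paralogue of Atp6v0d1 known from osteoclasts and macrophages, had 5.60, 6.38 and 6.23 in yNSCs, 2.63, 2.77 and 3.09 in NSCs, and 3.65, 3.76 and 3.50 in neurons; it was near background in NSCs and neurons, like Acp5.

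The autophagy list ran along similar lines. Of its 22 genes, 9 were higher and 4 lower in yNSCs against NSCs (40.9% and 18.2%, against 21.3% and 18% of all genes). In yNSCs against neurons 3 were higher and 8 lower (13.6% and 36.4%, against 34.6% and 27.9%). In NSCs against neurons 2 were higher and 12 lower (9.09% and 54.5%, against 33.3% and 34.1%). After array medians were subtracted the counts were 3 higher and 14 lower in yNSCs against neurons (29.6% and 41.6% of all genes). After quantile normalization 1 was higher and 15 lower in yNSCs against neurons (32.2% and 27.8% of all genes). At that setting 1 was higher and 16 lower in NSCs against neurons (33.3% and 29.3% of all genes). Sqstm1, the cargo receptor p62, had 10.60, 10.75 and 11.08 in yNSCs, 8.94, 8.84 and 8.66 in NSCs, and 10.44, 10.60 and 10.69 in neurons. It was 3.99-fold higher in yNSCs than in NSCs (2.0 ± 0.137) and 3.39-fold lower in NSCs than in neurons, and yNSC and neuron arrays overlapped. Map1lc3a, which encodes an LC3 protein of the autophagosome membrane, was 3.02-fold lower in yNSCs than in neurons, 5.92-fold lower in NSCs than in neurons and 1.96-fold higher in yNSCs than in NSCs. Gabarapl1, a related protein, was 2.39-fold lower in yNSCs than in neurons, 4.50-fold lower in NSCs than in neurons and 1.88-fold higher in yNSCs than in NSCs.

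Of 23 genes for sorting and delivery to lysosomes, 9 were higher and 5 lower in yNSCs against NSCs (39.1% and 21.7%, against 21.3% and 18% of all genes). In yNSCs against neurons 5 were higher and 9 lower (21.7% and 39.1%, against 34.6% and 27.9%). In NSCs against neurons 6 were higher and 10 lower (26.1% and 43.5%, against 33.3% and 34.1%). After quantile normalization 4 were higher and 15 lower in that comparison (33.3% and 29.3% of all genes). M6pr, the cation-dependent mannose 6-phosphate receptor, had 10.24, 10.32 and 10.29 in yNSCs, 9.59, 9.56 and 9.57 in NSCs, and 8.48, 8.36 and 8.63 in neurons, and was 3.47-fold higher in yNSCs than in neurons, 2.12-fold higher in NSCs than in neurons and 1.64-fold higher in yNSCs than in NSCs. Sort1, a sorting receptor of the Golgi, was lower in both, 2.74-fold in yNSCs and 1.59-fold in NSCs against neurons, and 1.73-fold lower in yNSCs than in NSCs. Among 16 relatives of Tfeb and genes of nutrient sensing at the lysosome, 4 were higher and 3 lower in yNSCs against NSCs (25% and 18.8%, against 21.3% and 18% of all genes). In yNSCs against neurons 4 were higher and 5 lower (25% and 31.2%, against 34.6% and 27.9%). In NSCs against neurons 5 were higher and 3 lower (31.2% and 18.8%, against 33.3% and 34.1%). After quantile normalization the counts against neurons were 0 higher and 6 lower in yNSCs (32.2% and 27.8% of all genes). They were 2 higher and 6 lower in NSCs (33.3% and 29.3% of all genes). Tfe3, a relative of Tfeb that binds the same element, had 8.14, 8.08 and 8.12 in yNSCs, 7.73, 7.64 and 7.72 in NSCs, and 7.53, 7.76 and 7.66 in neurons, and was 1.33-fold higher in yNSCs than in NSCs and 1.38-fold higher in yNSCs than in neurons. Fnip2, a partner of folliculin, was 2.90-fold lower in yNSCs than in NSCs and 2.47-fold higher in NSCs than in neurons.

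**Figure D5:**
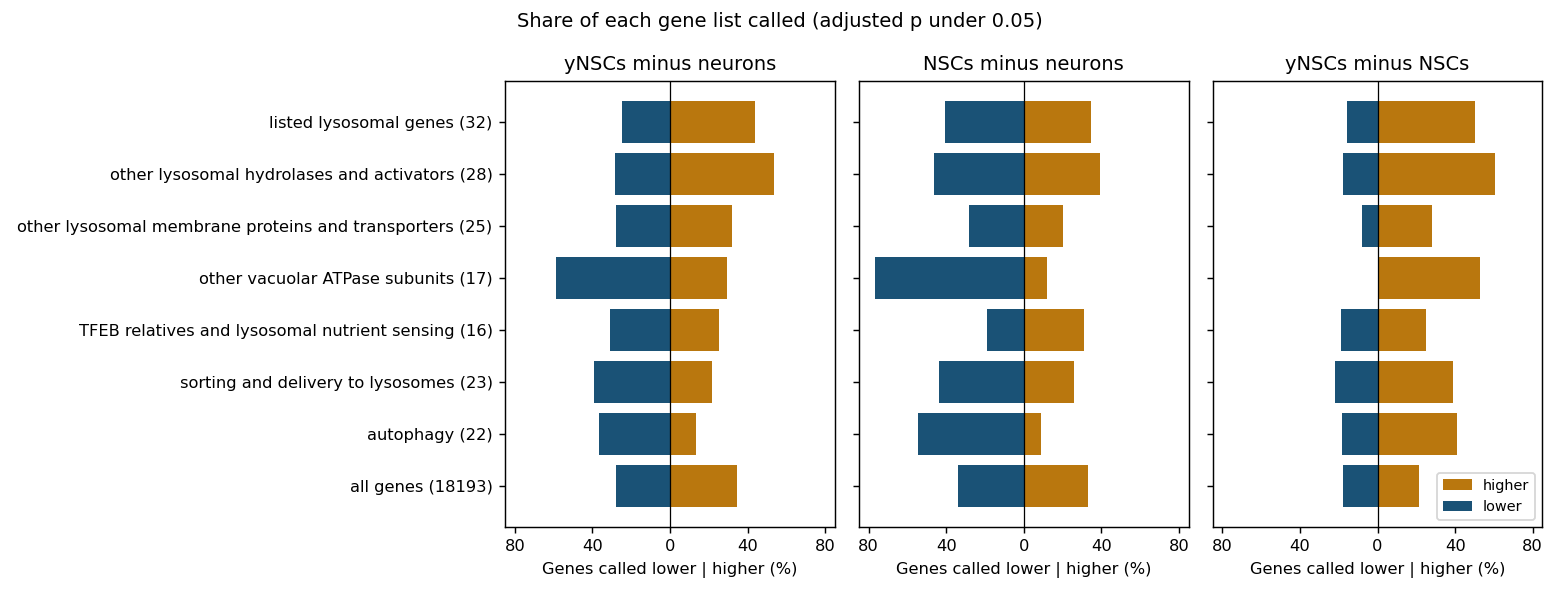
Share of each gene list called in the 3 comparisons. The x axis is the percentage of measured genes called higher (to the right) or lower (to the left), and each row is the list of members, another pathway list or all genes; 50% of the members and 60.7% of the other hydrolases were higher in yNSCs than in NSCs, against 21.3% of all genes.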

How the data were processed

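Biotinylated cRNA of 3 yNSC, 3 NSC and 3 neuron cultures was hybridized to Affymetrix Mouse430_2 arrays. The deposited log2 values were computed by the authors with RMA, per the labels; its version and the arrays normalized together are not given in the sources used here. Values span 1.73 to 14.46 and were used as deposited. The number of arrays limits the precision.

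Of 45101 probe sets, 64 controls, 932 with several symbols and 9160 not named here were left out. Where a gene had several of the remaining 34945, the brightest on average represented it. The 32 members matched the RefSeq gene table (GRCm38.p6) by gene ID. Group means over all 9 arrays were fitted in limma 3.58.1 (R 4.3.3; 6 residual and 5.59 prior degrees of freedom), with two-sided tests and Benjamini-Hochberg adjustment over 18193 genes. Differences are the group named first minus the other. The fit was tested on simulated data.

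The members and lists were chosen with earlier results of these data known. The rule gave values per array, per comparison, to the 5 called members of largest positive and the 5 of largest negative difference whose arrays did not overlap, to up to 2 members per role that did not pass, of highest mean, and to Tfeb, Lamp1 and Lamp2, and named up to 3 called genes of largest difference in each direction from each other list. Further members are given by array for completeness, and the markers C1qa, Gfap, Aqp4 and Aldh1l1 were picked after their values were seen. Some listed pathway genes are not reported here. Alternatives were the replicate block, fits to the 6 arrays of a comparison, a filter on the 40% of genes of lowest mean, quantile normalization, subtraction of array medians, averaged probe sets, a trended robust prior, a 2-fold minimum and omission of each array. P-values measure only the spread between these cultures.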

Additional observations from a re-analysis of the deposited data

How the results depend on the processing

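Calls at a 2-fold minimum numbered 6 higher and 2 lower in yNSCs against neurons, 7 and 8 in NSCs against neurons, and 6 and 1 in yNSCs against NSCs. When all probe sets per gene were averaged, the median difference of the members was 0.21 in yNSCs against neurons, -0.09 in NSCs against neurons and 0.29 in yNSCs against NSCs, where 3 members were lower. After subtracting array medians these medians were -0.08, -0.29 and 0.36, and after quantile normalization -0.12, -0.30 and 0.35, in the same order. Subtraction moved the median of all genes from -0.01 to -0.19 in yNSCs against neurons and from -0.07 to -0.21 in NSCs against neurons. After quantile normalization the median of all genes was 0.04 in each of these comparisons. Leaving out each array in turn, the medians ranged from 0.04 to 0.15 in yNSCs against neurons, -0.19 to -0.10 in NSCs against neurons and 0.31 (without replicate A of the NSCs) to 0.43 in yNSCs against NSCs; members lower in yNSCs than in NSCs numbered 3 (without replicate A or B of the yNSCs) to 5. Averaging probe sets turned the sign of Lipa (0.28, adjusted p = 0.0253) and Scarb2 (0.90, adjusted p = 1.17e-05) in yNSCs against neurons, of Scarb2 in NSCs against neurons (0.89, adjusted p = 1.22e-05), and of Gusb (0.16) and Atp6v1h (-0.15) in yNSCs against NSCs; here the probe sets of these genes differ. With the replicate block, 13 members were higher and 8 lower in yNSCs against neurons, 11 and 13 in NSCs against neurons, and 16 and 4 in yNSCs against NSCs; Lamp1 in yNSCs against neurons (adjusted p = 0.0842) and Glb1 in yNSCs against NSCs (adjusted p = 0.0838) lost their call, and no other call changed. The labels do not say whether the letters pair cultures between groups. Same-letter deviations correlated at -0.11 to 0.10, which cannot settle that question. Without replicate C of the neurons, 10 members were higher in yNSCs than in neurons. The cause of these shifts was not tested.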

Other observations

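Spread within groups differed between the arrays for these genes. Over the 32 members the median SD was 0.09 (log2) in yNSCs, 0.13 in NSCs and 0.13 in neurons. In replicate A of the NSCs 22 of the members lay below the group mean, with a median deviation of -0.12, while 54.3% of all genes lay below it with a median of -0.02. In replicate C of the neurons 28 of the members lay below the group mean, with a median deviation of -0.11 and, over all genes, 54.9% below and a median of -0.02. In replicate C of the yNSCs 22 members lay above the group mean, with a median deviation of 0.05. Over all genes 48.2% lay below the group mean on that array, with a median of 0.00.

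Of the 6 astrocyte markers, 4 were higher and 0 lower in yNSCs against NSCs, and 1 was higher and 4 lower in NSCs against neurons. Gfap, an intermediate filament of astrocytes and of some neural stem cells, had 9.15, 9.15 and 9.38 in yNSCs, 3.65, 3.84 and 3.92 in NSCs, and 8.10, 7.47 and 7.28 in neurons. It was lowest in NSCs, 42.9-fold higher in yNSCs than in NSCs and 14.1-fold lower in NSCs than in neurons (limma adjusted p = 1.04e-09 and 2.54e-09). The water channel Aqp4 was 28.4-fold higher in yNSCs than in NSCs, with a wide range of 3.40 to 5.90 in NSCs. Aldh1l1, a folate enzyme of astrocytes, differed by -0.04 in yNSCs against NSCs and was higher in NSCs than in neurons by 1.68. Whether astrocyte-like cells in these cultures contribute to the lysosomal gene values was not tested.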
